A study of Homo sapiens with 6 samples.

Results

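The genes described here make prostaglandin E2 (PGE2), bind it or break it down. They are the cyclooxygenase genes PTGS1 and PTGS2, the terminal PGE2 synthase genes PTGES, PTGES2 and PTGES3, the genes of the EP receptors PTGER1, PTGER2, PTGER3 and PTGER4, and HPGD, which encodes the enzyme that inactivates PGE2. The 10 genes were chosen by name, all 10 were matched through the platform annotation, each to 1 row, and the array held 21448 rows that were not controls. RNA was collected from the human malignant mesothelioma cell line MSTO-211H (MSTO) 48 h after treatment, from 3 cultures treated with a miR-503 inhibitor (anti-miR-503) and 3 labelled as not treated, and 100 ng of each was hybridized to a Clariom S array. The treatment of the control cultures is unsettled, since their titles call them untreated, the treatment label names a 0.1% DMSO vehicle and the methods speak both of a negative control inhibitor and of untreated cells. The labels name the cultures biological replicates of a single cell line, so the spread between arrays does not include differences between tumours.

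Cyclooxygenases convert arachidonic acid, released from membranes by phospholipases, into prostaglandin H2, and terminal synthases turn this into PGE2. PTGS1 is the form that many tissues make at all times, whereas PTGS2 is induced by cytokines, growth factors and stress and is the target of many anti-inflammatory drugs. PGE2 acts through EP receptors, of which EP2 and EP4 raise cAMP, EP3 mostly lowers it and EP1 raises calcium, and it is known in pleural disease and cancer as a mediator of inflammation and growth.

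The inhibitor is directed against hsa-miR-503-5p, shown here because it is the molecule that the treatment was designed to block. Its RefSeq sequence (GRCh38.p14, chrX:134546371-134546393, minus strand) is printed with the seed, bases 2 to 8, in capitals. The level of the miRNA was not analysed here, so the extent of its inhibition in these cultures is not known from the arrays.
hsa-miR-503-5p: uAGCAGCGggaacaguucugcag

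Each value is the log2 signal that the authors obtained by robust multi-array average (RMA), and a gene counted as above background where it exceeded 95% of the 612 negative control rows of its array. This level lay between 7.44 and 8.09. Between 40.3% and 43.6% of the rows were above it. Levels of different genes cannot be ranked, since every gene is read by its own probes. The 6 mesothelial or epithelial markers MSLN, CALB2, KRT7, KRT8, KRT18 and VIM were above background on all 6 arrays, of 12 measured, whereas WT1, KRT5, KRT19, PDPN and THBD were above it on none. The other marker, the uroplakin gene UPK3B, had 8.46, 8.44 and 6.94 in controls and 7.50, 5.75 and 7.09 after anti-miR-503. It was above background in control replicates 1 and 2 alone, and the groups overlapped. The mean of the control arrays was 1.29-fold above the background levels of the anti-miR-503 arrays. The fitted log2 difference was -1.16 (95% confidence interval -2.39 to 0.060, limma adjusted p = 0.756), an interval that includes no change. The part of UPK3B in the results below was not tested. None of 9 leukocyte and 6 endothelial markers was above background on any array, and 1 of 6 fibroblast markers, COL1A2, was above it on all arrays. The summed log2 level of the leukocyte markers lay between 41.6 and 42.5 in the control and between 41.6 and 44.1 in the anti-miR-503 arrays. Over all rows anti-miR-503 replicate 1 correlated best with control replicate 3 (r = 0.991, across rows, which are not independent replicates) and at 0.980 and 0.977 with the other anti-miR-503 arrays.

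In MSTO cells the genes of all terminal PGE2 synthases were above background, and neither cyclooxygenase gene was. Of the 10 genes, PTGES, PTGES2 and PTGES3 were above background on all 6 arrays, PTGER4 on 2 arrays, both anti-miR-503, and the other 6 on none. A stricter level, chosen after seeing the data, was to exceed 99% of the negative control rows. Only 1 gene, PTGES3, was above it on all 6 arrays. PTGES was above it on all but control replicate 3 and PTGES2 on control replicate 1 alone. PTGER4 was above this stricter level on no array. Directions follow the array labels, anti-miR-503 minus control. They are opposite to those in the gene table of the study for PTGER4 and for AKR1C3 and PTGR1 below. Which of these is turned round was not settled. If it is the array labels, every direction given here would be reversed. In these bulk samples fewer cells of a kind and less RNA per cell cannot be told apart. By limma, 0 of the 10 had an adjusted p under 0.05, and so had 0% of all rows. An unadjusted p of 0.05 or less was found for 1377 rows, or 6.42%, and for 1 of the 10 genes. A second threshold joined a fold of 2 or more with an unadjusted p of 0.05 or less. PTGER4 passed it upward, as did 0.872% of all rows, and none of the 10 passed it downward, as did 0.914% of rows. For none of the 10 genes did all anti-miR-503 arrays lie above all control arrays, as they did for 5.92% of rows, or below them, as for 4.6%.

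**Figure D1:**
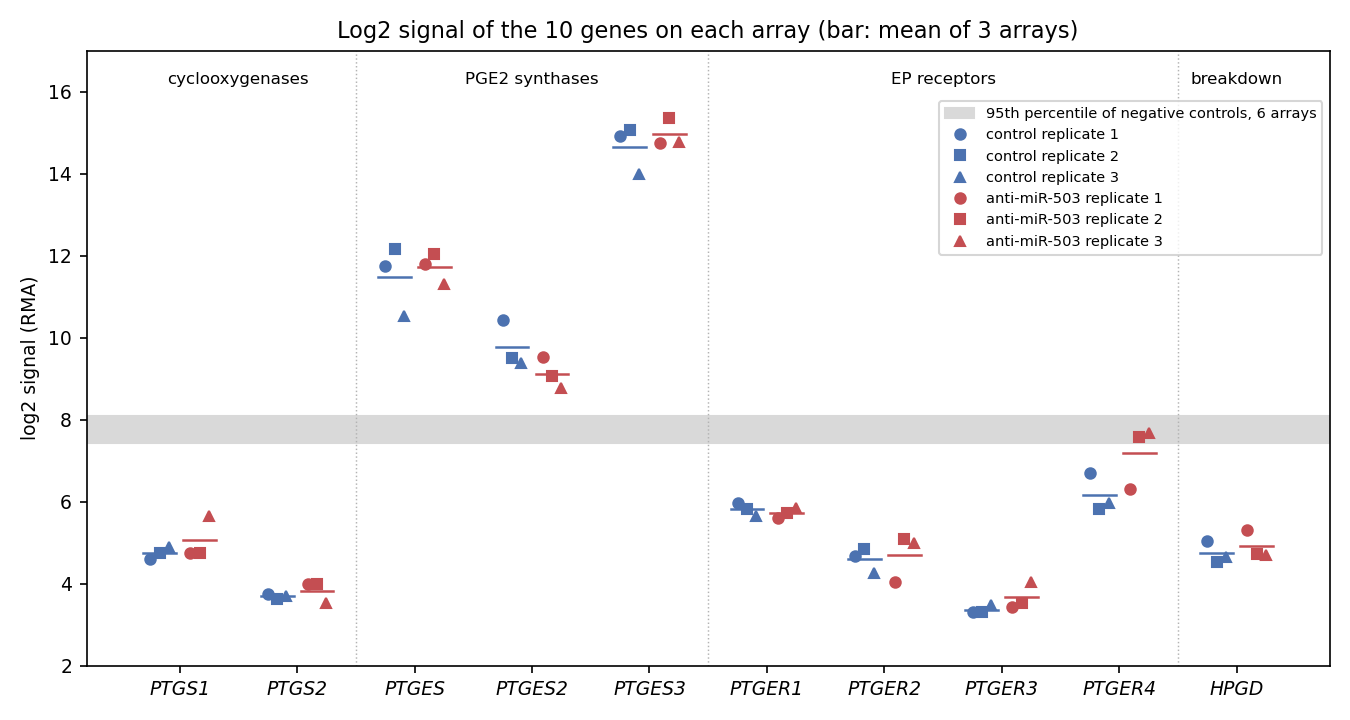
Log2 signal (y axis) of the 10 genes (x axis, grouped by role) on each of 3 control (blue) and 3 anti-miR-503 (red) arrays, with the replicate number as the symbol, the mean of each group as a bar and the range of the background levels of the 6 arrays as a grey band. PTGES, PTGES2 and PTGES3 lie above the band on every array, PTGER4 reaches it in anti-miR-503 replicates 2 and 3, and the other 6 genes lie below it.

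Neither cyclooxygenase gene was above background on any array. PTGS2 had values close together in both groups. It had a log2 signal of 3.76, 3.62 and 3.71 in controls and 3.98, 4.0 and 3.52 after anti-miR-503. The groups overlapped, with the lowest of the 6 values in anti-miR-503 replicate 3. PTGS1 had 4.59, 4.75 and 4.90 in controls and 4.74, 4.76 and 5.66 after anti-miR-503. Here a single array, anti-miR-503 replicate 3, stood above the rest, still below its background of 7.44. With both groups below background on every array, no fold is given for either cyclooxygenase, and a change below the detection of these probes cannot be seen.

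PTGES encodes the inducible microsomal synthase mPGES-1, which is often made together with PTGS2. Its log2 signal was 11.76, 12.17 and 10.52 in controls and 11.80, 12.05 and 11.30 after anti-miR-503. Control replicate 3 was the lowest, the other 5 arrays lay between 11.30 and 12.17, and the groups overlapped. The log2 difference of anti-miR-503 minus control was 0.23 (standard error 0.42, 95% confidence interval -0.72 to 1.19, limma adjusted p = 0.922), and it was -0.25 without control replicate 3. This interval still holds changes of 2-fold in the upward direction, which 3 arrays a group do not resolve.

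To set the gene that was measured beside its inducible partner and the receptor gene that was above background on some arrays, the RefSeq promoter stretches of PTGES, PTGS2 and PTGER4 are shown, each 250 bases ending just before the annotated transcript start (GRCh38.p14). Promoters were given for 9 of the 10 genes, PTGER3 being the other one. Capitals mark matches, on either strand, to 5 short motifs: the TATA box TATAAA, the CCAAT box CCAAT, the GC box GGGCGG, the core TGACG of the cAMP response element (CRE) and the C/EBP motif TTNNGNAAT. The stretch of PTGES lies at chr9:129753043-129753292 (minus strand), that of PTGS2 at chr1:186680424-186680673 (minus strand) and that of PTGER4 at chr5:40679665-40679914 (plus strand).
PTGES: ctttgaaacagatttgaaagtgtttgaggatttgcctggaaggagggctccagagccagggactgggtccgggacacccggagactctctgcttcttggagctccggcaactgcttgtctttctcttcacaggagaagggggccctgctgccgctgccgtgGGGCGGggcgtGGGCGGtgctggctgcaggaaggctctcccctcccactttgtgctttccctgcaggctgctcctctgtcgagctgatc
PTGS2: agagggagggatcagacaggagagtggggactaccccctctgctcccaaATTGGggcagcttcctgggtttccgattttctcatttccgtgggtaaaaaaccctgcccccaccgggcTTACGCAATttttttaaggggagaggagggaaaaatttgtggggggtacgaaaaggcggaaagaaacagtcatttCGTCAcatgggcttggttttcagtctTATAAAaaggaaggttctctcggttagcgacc
PTGER4: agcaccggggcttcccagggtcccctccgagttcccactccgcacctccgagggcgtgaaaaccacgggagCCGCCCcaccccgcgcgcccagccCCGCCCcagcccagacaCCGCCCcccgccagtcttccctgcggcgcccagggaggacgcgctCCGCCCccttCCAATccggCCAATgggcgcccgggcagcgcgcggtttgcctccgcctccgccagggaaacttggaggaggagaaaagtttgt

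The stretches differed in which motifs they hold. In PTGES the search found 2 GC boxes, starting 89 and 78 bases before the start, and none of the other motifs. In PTGS2 it found a TATA box 32 bases, a CRE core on the reverse strand 58 bases, a C/EBP motif 133 bases and a CCAAT box on the reverse strand 201 bases before the start, and no GC box. In PTGER4 it found 4 GC boxes, all on the reverse strand, and 2 CCAAT boxes and no TATA box, and the GC content was 72.8% against 61.2% for PTGES and 50.4% for PTGS2. No matches of different motifs overlapped in these stretches. Among 35116 promoter stretches of this length, 42.6% hold a GC box, 32.0% a CCAAT box, 21.2% the CRE core, 10.7% the TATA box and 9.85% the C/EBP motif. These matches describe the sequence, and whether any factor binds there in MSTO cells was not tested.

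PTGES2 and PTGES3 encode the membrane-associated synthase mPGES-2 and the cytosolic synthase cPGES, the latter better known as p23, a co-chaperone of HSP90. PTGES2 had a log2 signal of 10.43, 9.51 and 9.38 in controls and 9.52, 9.06 and 8.77 after anti-miR-503. Anti-miR-503 replicates 2 and 3 were the lowest of the 6 arrays, whereas replicate 1 lay within the controls. Its log2 difference was -0.65 (standard error 0.33, 95% confidence interval -1.42 to 0.11, limma adjusted p = 0.762). Leaving out control replicate 1, the highest array, gave -0.33, and leaving out anti-miR-503 replicate 1 gave -0.85, when the groups no longer overlapped.

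PTGES3 was at 14.92, 15.06 and 13.99 in controls and 14.75, 15.37 and 14.78 after anti-miR-503. As for PTGES, control replicate 3 was the lowest array, and the other arrays lay between 14.75 and 15.37. The log2 difference was 0.31 (standard error 0.33, 95% confidence interval -0.45 to 1.06, limma adjusted p = 0.866), and -0.028 without control replicate 3. The RefSeq annotation holds 5 pseudogenes of PTGES3, whose share in this signal was not tested. Of the 6 HSP90 genes and co-chaperones measured beside it, all above background on every array, none passed the 2-fold threshold and the median log2 difference was 0.077, against 0.0098 over all rows. Among them the cyclophilin gene PPID had 0.27 (standard error 0.24) and the immunophilin gene FKBP4 had 0.17 (standard error 0.27). Without control replicate 2 the value of PPID was 0.12 and that of FKBP4 turned to -0.053. PPID was at 0.46 without control replicate 3, and FKBP4 at 0.39 without control replicate 1.

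PTGER4, which encodes the cAMP-raising EP4 receptor, was the receptor gene above background on some arrays. Its log2 signal was 6.70, 5.83 and 5.96 in controls and 6.31, 7.58 and 7.68 after anti-miR-503. Anti-miR-503 replicates 2 and 3 were the highest and the only arrays above their background, of 7.54 and 7.44, and replicate 1 lay between the controls. The log2 difference was 1.02 (standard error 0.41, 95% confidence interval 0.095 to 1.94, limma adjusted p = 0.756). This is the fitted value, and 4 of its 6 signals were not above background. Since no control array was above background and the background levels there exceeded the mean of the anti-miR-503 arrays, no fold is given. The study chose PTGER4 as a biomarker on these arrays, so its place past the threshold is not independent evidence. Without anti-miR-503 replicate 1 the difference was 1.46, and with control replicate 1 left out it was 1.29, both past the 2-fold threshold. It was 0.77 to 0.92 without any 1 of the other 4 arrays, and then did not pass. The unpaired t test, which the methods name for comparing 2 groups in general, gave no call for PTGER4 either. For the arrays the methods name Transcriptome Analysis Console and no test, so this need not be the test that the study used on them.

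**Figure D2:**
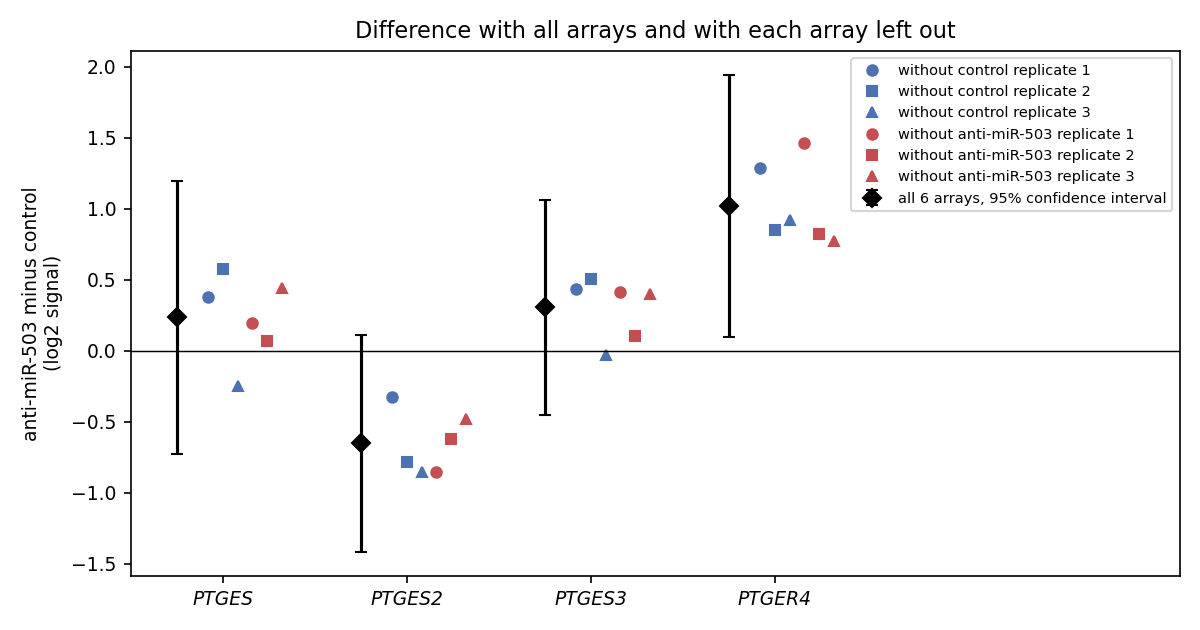
Log2 signal of anti-miR-503 minus control arrays (y axis) for PTGES, PTGES2, PTGES3 and PTGER4 (x axis), with all 6 arrays and the 95% confidence interval (black) and with each control (blue) or anti-miR-503 (red) array left out. PTGER4 stays between 0.77 and 1.46 and PTGES2 between -0.85 and -0.33, whereas PTGES and PTGES3 fall below 0 without control replicate 3.

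The genes of the other EP receptors were not above background on any array. PTGER2, which encodes EP2, the other cAMP-raising receptor, had 4.67, 4.85 and 4.26 in controls and 4.04, 5.09 and 4.99 after anti-miR-503, with anti-miR-503 replicate 1 the lowest of all. PTGER3, which encodes EP3, had 3.30, 3.31 and 3.48 in controls and 3.42, 3.53 and 4.04 after anti-miR-503. As for PTGS1, replicate 3 of the anti-miR-503 arrays was the highest. PTGER1, which encodes EP1, stayed between 5.61 and 5.97, the narrowest range of the 10 genes. HPGD, which starts the breakdown of PGE2 by oxidation, had 5.05, 4.54 and 4.66 in controls and 5.32, 4.73 and 4.70 after anti-miR-503. The groups overlapped for these 4 genes, and no fold is given for them.

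Around these genes, 98 others of 9 lists were measured, of 111 listed, and 3 passed the 2-fold threshold upward and 1 downward, beside the percentages of all rows given above. None passed an adjusted p under 0.05 from limma. The higher genes were AKR1C3, PTGR1 and ZFP36, and the lower one was PRKAR1B. By the methods' t test none of the 98 passed.

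**Figure D3:**
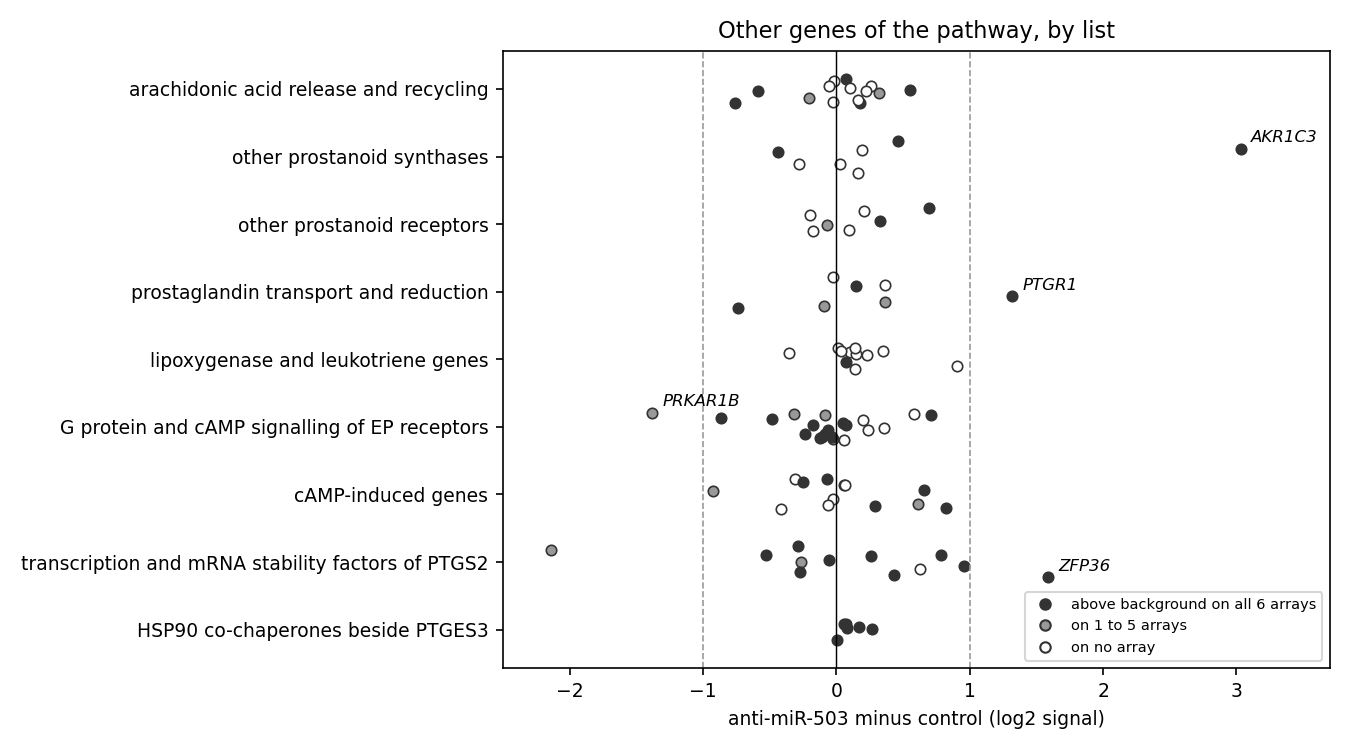
Log2 signal of anti-miR-503 minus control arrays (x axis) of the 98 other pathway genes, 1 point each, by list (y axis), filled by the number of arrays above background, with dashed lines at 1 and -1. AKR1C3, PTGR1 and ZFP36 to the right and PRKAR1B to the left are the genes past the 2-fold threshold, while EGR1, at -2.14, missed its p.

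Genes that release arachidonic acid or put it back into membranes showed no call, 0 of 14 measured in either direction, with a median log2 difference of 0.087. PLA2G4A, the cytosolic phospholipase A2 that supplies the cyclooxygenases, had 6.59, 6.91 and 7.32 in controls and 7.08, 8.03 and 6.67 after anti-miR-503, above background in anti-miR-503 replicate 2 alone. It is named here after its values were seen. MGLL, which releases arachidonic acid from the endocannabinoid 2-arachidonoylglycerol, had a log2 difference of 0.55 (standard error 0.35), and 0.21 without control replicate 3. MBOAT7, which returns arachidonic acid to phosphatidylinositol, had -0.59 (standard error 0.31), with 12.95, 11.90 and 11.94 in controls and 11.76, 11.57 and 11.68 after anti-miR-503. The anti-miR-503 arrays all lay lower, but control replicate 1 stood far above the other arrays, and without it the difference was -0.24.

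Among 7 other prostanoid synthases and related reductases, 1 was higher and 0 were lower. AKR1C3, an aldo-keto reductase that makes F-type prostaglandins, was at 8.36, 13.11 and 10.92 in controls and 13.54, 14.10 and 13.85 after anti-miR-503, a log2 difference of 3.03 (standard error 0.97, limma adjusted p = 0.756). The controls spread over far more than the anti-miR-503 arrays, and the difference was 1.81 without control replicate 1. Close AKR1C paralogs can share its probe signal. PTGDS, HPGDS, PTGIS and TBXAS1, which make prostaglandin D2, prostacyclin and thromboxane, were above background on no array.

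Of 7 other prostanoid receptors and related genes, none passed. The genes of the receptors of prostaglandin D2, PTGDR and PTGDR2, of prostaglandin F2alpha, PTGFR, and of thromboxane, TBXA2R, were above background on no array. The prostacyclin receptor gene PTGIR had log2 signals of 7.68, 7.99 and 7.48 in controls and 7.82, 7.69 and 7.42 after anti-miR-503. It was above background on 2 anti-miR-503 arrays, but its signal was not higher there, with means of 7.72 in controls and 7.64 after anti-miR-503. The background levels differed between arrays. Control replicate 2, the highest signal, lay below its background of 8.09, while anti-miR-503 replicate 2 exceeded its background of 7.54. PPARG, a nuclear receptor that binds some prostaglandin derivatives, had 9.58, 9.96 and 8.89 in controls and 9.0, 10.93 and 10.60 after anti-miR-503, a log2 difference of 0.70 (standard error 0.50). With anti-miR-503 replicate 1 left out it was 1.28, past the 2-fold threshold, and it was 0.32 with anti-miR-503 replicate 2 and 0.40 with control replicate 3 left out. PTGFRN, a membrane protein that associates with the F receptor, had 0.33 (standard error 0.36), which turned to -0.047 without control replicate 1 and was 0.65 without control replicate 3.

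Of 7 genes of prostaglandin transport and reduction, 1 was higher and 0 were lower. PTGR1, a reductase of prostaglandin metabolites and leukotriene B4, was at 10.79, 12.26 and 11.25 in controls and 12.29, 13.30 and 12.67 after anti-miR-503. The groups did not overlap, by a margin that is small beside the spread of the controls. The log2 difference was 1.32 (standard error 0.41, limma adjusted p = 0.756), and without control replicate 1 it was 0.9954, just short of the 2-fold threshold. SLCO2A1, the prostaglandin uptake transporter, was above background on no array.

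The lipoxygenase branch, which makes leukotrienes from the same arachidonic acid, was below background for 10 of 11 genes measured, on every array, and 0 passed in either direction. The exception was LTA4H, an enzyme of leukotriene B4 synthesis that is also an aminopeptidase, between 13.14 and 13.98. ALOX12B, a skin lipoxygenase, and ALOX15 had the smallest p of the list, and both were below background on every array.

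Downstream of the EP receptors, 0 of 21 G protein, adenylyl cyclase and protein kinase A genes were higher and 1 was lower. PRKAR1B, a regulatory subunit of protein kinase A, was at 9.96, 9.55 and 9.43 in controls and 9.64, 7.75 and 7.42 after anti-miR-503. Anti-miR-503 replicates 2 and 3 lay well below the other 4, and replicate 3 was not above background. The log2 difference was -1.38 (standard error 0.53, limma adjusted p = 0.756). Without anti-miR-503 replicate 1 it was -2.07 (limma adjusted p = 0.0286), while without anti-miR-503 replicate 2 or 3 or control replicate 1 or 2 it did not pass the 2-fold threshold, with -1.43 to -0.95. Of 13 cAMP-induced genes, none passed. The cAMP phosphodiesterase gene PDE4D had 8.16, 9.03 and 8.40 in controls and 8.11, 9.96 and 9.97 after anti-miR-503, a log2 difference of 0.82 (standard error 0.50), and the kinase gene SIK1 had 0.61 (standard error 0.33). Without anti-miR-503 replicate 1 the difference of PDE4D was 1.44 and passed the 2-fold threshold, and with anti-miR-503 replicate 2 or 3 left out it was 0.52 or 0.51. For SIK1 leaving out replicate 2 gave 0.32 where it was the control and 0.40 where it was the anti-miR-503 array.

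Of 12 genes that act on the transcription or the mRNA stability of PTGS2, 1 was higher and 0 were lower. ZFP36 encodes tristetraprolin, which binds AU-rich elements and speeds the decay of PTGS2 and cytokine mRNAs. It was at 10.03, 8.37 and 10.12 in controls and 9.76, 11.68 and 11.86 after anti-miR-503, with replicate 1 again within the controls. The log2 difference was 1.59 (standard error 0.63, limma adjusted p = 0.756). Leaving out control replicate 2 gave 1.02, and leaving out anti-miR-503 replicates 2 or 3 gave 1.30 or 1.21, none of them past the threshold, while 2.26 was found without anti-miR-503 replicate 1. PTGS2 itself was below background on every array, so these arrays cannot show whether its level followed that of ZFP36.

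**Figure D4:**
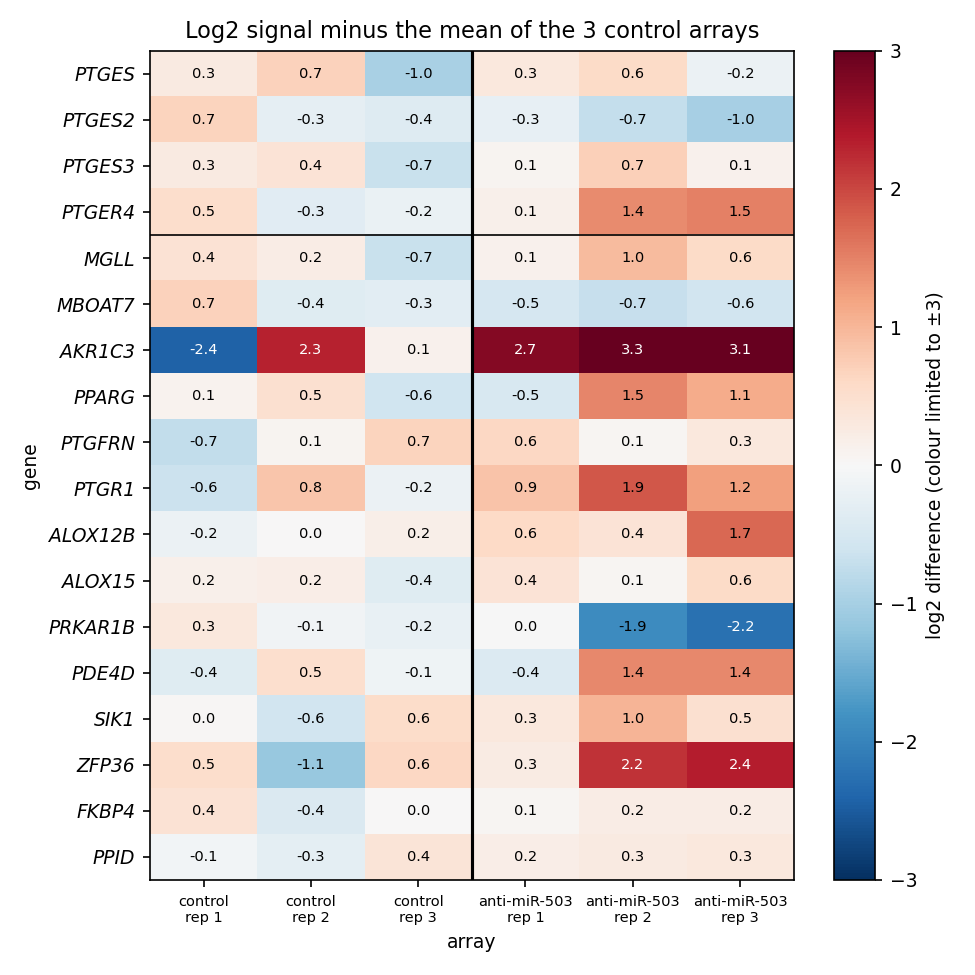
Log2 signal of each array (x axis) minus the mean of the 3 control arrays, as colour and number, for the 4 genes of the PGE2 pathway above background on at least 1 array (above the line) and the pathway genes named by rule (y axis). For PTGER4, PPARG, PDE4D and ZFP36 anti-miR-503 replicates 2 and 3 are above 1 while replicate 1 is at or below the highest control array.

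Of the 10 genes, PTGER4 varied most over the 6 arrays (SD 0.80). Over these arrays the genes with the pattern most like it, among 8124 named genes above background on at least 3 arrays, were CTTNBP2NL (Pearson r = 0.996), the chemokine gene CXCL2 (0.993), the kinase gene NUAK2 (0.993), GOLM1 (0.987) and MAD1L1 (0.987). CXCL2 was at 8.65, 7.91 and 8.07 in controls and 8.41, 9.91 and 10.10 after anti-miR-503. These r rest on 6 arrays that share 1 normalization, and the named genes are the highest of 8124 candidates. They describe how closely the signals rose and fell together, and the order of the arrays was not always the same. PTGER4 and CXCL2 were higher in anti-miR-503 replicate 3 than in replicate 2, at 7.68 and 7.58 for PTGER4. CTTNBP2NL, NUAK2, GOLM1 and MAD1L1 were higher in replicate 2 than in replicate 3. Whether these genes are regulated together was not tested.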

How the data were processed

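Gene expression was measured on 6 Clariom S arrays of MSTO cells, 3 anti-miR-503 and 3 control. The authors processed the arrays in Transcriptome Analysis Console with RMA, and the deposited log2 values, 1 for each transcript on each array, were used as given. The form of RMA and the annotation build were each not given in the sources used here, so no gene positions of array rows are printed. Of 24351 rows, the 2903 controls of the array were dropped, leaving 21448 for testing, of which 17709 have 1 gene symbol and 3739 none; for the 20 symbols with several rows the row with the highest mean was taken. A linear model in limma 3.58.1 (R 4.3.3; lmFit, then eBayes) compared the groups over all rows, and p-values were adjusted by the Benjamini-Hochberg method. The second threshold was a fold of at least 2 at an unadjusted p of 0.05 or less. Precision is limited by the number of arrays. The fit was tested on simulated data.

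The genes and lists were chosen with earlier results of these data known. Named are the 10 genes, up to 4 genes of each list past the 2-fold threshold, or the 2 with the smallest p where none passed, and the 5 genes most like the most variable of the 10. Alternatives were robust estimation with a variance trend, the unpaired t test of the methods, a filter on low rows, a second quantile normalization, median centring, array weights, leaving out each array, other thresholds and a block for the replicate number; other background percentiles were chosen after seeing the data. Each of the 10 genes has 1 row, so averaging rows was not needed. Sequences are from RefSeq (GRCh38.p14), and the motif search covered both strands. Figures were drawn with matplotlib 3.10.9.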

Additional observations from a re-analysis of the deposited data

How the results depend on the processing

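With each array left out in turn, the rows past an adjusted p of 0.05 numbered 0 to 154 and those past the 2-fold threshold 81 to 519 higher and 82 to 818 lower, most of them without anti-miR-503 replicate 1. Of the 10 genes 0 to 1 passed higher, 0 to 3 lay wholly above and 0 to 1 wholly below the controls, and of the pathway genes 2 to 9 were higher and 0 to 3 lower. The 3 wholly above, found without anti-miR-503 replicate 1, were PTGER4 and also PTGER2 and PTGER3, both below background on every array. Groups separate more easily when an array is left out. The share of all rows that then separate was not computed, so these counts are not read as a result. The log2 difference ran from -0.25 to 0.58 for PTGES, -0.0285 to 0.51 for PTGES3, -0.0759 to 0.45 for PTGER2 and -0.0382 to 0.31 for HPGD. PTGER2 and HPGD were below background on every array, so their fitted values show no direction. The value was below 0 for PTGES (-0.25), PTGES3 (-0.0285) and PTGER2 (-0.05) without control replicate 3, for PTGER2 without anti-miR-503 replicate 2 (-0.0759) or 3 (-0.03) and for HPGD without anti-miR-503 replicate 1 (-0.0382). The methods' t test gave 38 rows higher and 55 lower, and 0 of the 10 genes and 0 pathway genes in either direction. With low rows left out 118 rows were higher and 123 lower. Array weights gave 342 and 411 rows and 2 pathway genes lower. At 1.5-fold there were 613 and 617 rows and 5 and 2 pathway genes, and at p of 0.01 or less 52 and 57 rows, 0 of the 10 genes and 0 pathway genes. With background at the 99th percentile, chosen after seeing the data, 1 of the 10 genes instead of 3 was above it on all arrays. On at least 1 array it was 3 genes instead of 4.

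Whether the replicate numbers pair the arrays was not settled. Deviations from the group mean correlated at -0.10, 0.21 and 2.94e-05 between arrays of the same number. Between arrays of different number they correlated at -0.33 to 0.25. With 3 arrays a group, whose deviations sum to 0, these correlations cannot decide it. With the number as a block, 0 of the 10 genes passed the 2-fold threshold (PTGER4 1.02, limma adjusted p = 0.644), 197 rows were higher and 228 lower, and the pathway counts were 3 and 1. The block raised the unadjusted limma p of PTGER4 from 0.034 to 0.069 and lowered that of PTGES2 from 0.084 to 0.026. It also lowered that of AKR1C3, PTGR1 and PRKAR1B and raised that of ZFP36.

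A variance trend, a second quantile normalization and median centring moved no count by over 1.5 times. The cause of these shifts was not tested. Of the 10 genes, 6 gave signals below background on every array, so for them a change that stayed below detection cannot be seen in either direction.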

Other observations

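Control replicate 1 carried the highest signals of some, but not all, immediate-early genes, which are switched on within minutes by growth factors, stress or handling. EGR1 was at 13.82, 6.89 and 8.53 in controls and 8.29, 7.96 and 6.56 after anti-miR-503. FOS was at 8.57 in control replicate 1 and between 5.29 and 6.0 on the other 5 arrays, and NR4A1 was at 10.56 there and between 7.52 and 9.60 elsewhere. In contrast, JUN and DUSP1 were highest in anti-miR-503 replicate 2, at 12.15 and 15.44, against 11.95 and 15.27 in control replicate 1. PTGS2, which is also induced early in many cells, was at 3.76 on this array, below background like on the others. These genes were named after their values were seen, and what set this culture apart was not tested.

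ABCC4, a pump that exports PGE2 and cAMP, and PRKACB, a catalytic subunit of protein kinase A, were likewise named after their values were seen. ABCC4 was at 10.55, 10.67 and 11.26 in controls and 10.82, 9.50 and 9.95 after anti-miR-503. PRKACB was at 11.07, 11.39 and 11.33 in controls and 11.30, 9.78 and 10.12 after anti-miR-503. For both genes, as for PRKAR1B, anti-miR-503 replicates 2 and 3 were low and replicate 1 lay within the controls. Neither passed the 2-fold threshold, with log2 differences of -0.74 (standard error 0.36) and -0.87 (standard error 0.38). Another protein kinase A subunit gene, PRKAR2B, also named after its values were seen, ran the other way. It was at 9.18, 8.75 and 8.17 in controls and 8.59, 10.09 and 9.54 after anti-miR-503. Its log2 difference was 0.71 (standard error 0.41). For PRKACA, PRKAR1A and PRKAR2A, anti-miR-503 replicates 2 and 3 were not both below the controls.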
